A study of Mus musculus with 8 samples.

Results

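The integrated stress response and amino acid supply genes are described here as a set of 51 genes out of the 24279 in the deposited tables. They were chosen by name: 14 regulators and effectors of the transcription factor ATF4, 11 enzymes of serine, glycine and one-carbon metabolism, 7 other amino acid enzymes, 7 amino acid transporters and 12 tRNA synthetases. The choice was made with earlier results of these data known. Shares of the set set beside those of all genes therefore describe the list and are no independent test. All 51 were found in the tables, and 49 were tested in 1 comparison and 48 in the other. RNA was measured in 8 libraries of mouse embryonic stem cells grown for 6 days without leukemia inhibitory factor, the cytokine that keeps such cells undifferentiated, with 2 libraries in each of 4 groups. The labels give noDox as cells with AGO1-4-/-, that is labelled as lacking the Argonaute genes, whose proteins carry microRNAs. They give DOX as AGO1-4-/- cells with only AGO2 under doxycycline, NLS as AGO1-4-/- cells with only NLS-AGO2 (AGO2 carrying a nuclear localization signal), and E14 as wild-type cells. One protocol is given for every group, noDox and E14 included: 2.5 µg/ml doxycycline daily, at passages 8 to 15. All 8 samples, E14 among them, also carry the same description of an inducible line with HA-Flag-AGO2.

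Levels are RPKM (reads per kilobase of transcript, scaled to library size), with a single pooled value for the 2 libraries of a group. Printed noDox levels are from the DOX or E14 comparison, and those scaled with NLS were higher by a median factor of 1.03. Small steps from printed noDox to NLS levels can thus run against the sign of the NLS fold, as for Asns (log2 fold −0.02). The tables deposited for DOX and for E14 were identical in all 24279 lines, and which of these groups they hold is not settled, so both names are kept below. The label check on Ago1 gave 0.0159 RPKM for noDox, 0.861 for NLS and 16.7 for the DOX or E14 group, and the last value goes against the DOX label. Ago1 did not pass in DOX or E14 (q = 0.233, Cuffdiff, authors' deposited table) and was not tested in NLS, so this rests on the level alone. Ago2 stood at 26.1 RPKM in noDox, 32.6 in DOX or E14 and 35.7 in NLS and passed in neither table, so its RNA was present in the group labelled AGO1-4-/-. Ago3 stood at 7.56 RPKM in noDox, fell to 3.001 in DOX or E14 and rose to 14.5 in NLS. Ago4 stood at 0.316, 0.0798 and 0.205 RPKM in noDox, DOX or E14, and NLS and was not tested. RNA of Ago2 and Ago3 was thus present in noDox and NLS, while that of Ago1 was under 1 RPKM in both. RNA alone does not show whether a protein was made, so these levels leave the labels of noDox and NLS unsettled. The group names below are only those of the labels. Pou5f1, the defining factor of pluripotent cells, was at 501, 542 and 474 RPKM in noDox, DOX or E14, and NLS. Of 8 pluripotent cell markers, however, 5 fell in DOX or E14 and 1 rose, with Nanog at 431, 69.3 and 287 RPKM and Sox2 at 184, 53.2 and 154. The summed RPKM of 7 endoderm markers was 1.93, 2.65 and 2.03 in the same order, with Afp at 0 in every group. The summed RPKM of 7 fibroblast and feeder cell markers was 1.56, 12.8 and 3.22, with 2 of them at 0 in noDox. For 5 neural markers it was 32.6, 57.9 and 50.9, of which Tubb3 gave 28.9, 30.8 and 45.6. The neural markers Sox1, at 0.351, 5.05 and 0.572 RPKM, and Nes, at 2.86, 19.0 and 4.37, rose in DOX or E14. Pax6 rose there as well, at 0.438, 2.85 and 0.335. For 6 mesoderm markers the sum was 4.01, 9.79 and 6.72. Among them T stood at 0.0296, 5.10 and 0.332. In DOX or E14 T did not pass, Eomes rose and Kdr fell. The part of these markers in the results below was not tested. In bulk RNA, a change in the share of a cell type and a change per cell cannot be told apart.

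The integrated stress response slows general translation when kinases phosphorylate the initiation factor eIF2, while a few messages with upstream reading frames, Atf4 among them, are translated more. ATF4 then pairs with C/EBP proteins at C/EBP-ATF response elements and raises genes that make, import and charge amino acids. Since ATF4 is set largely by translation, the level of its RNA need not follow its activity. In rapidly dividing cells such as embryonic stem cells, the serine and one-carbon enzymes supply glycine and the folate-bound carbon units used for nucleotides.

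The element was searched as TGATGNAA on either strand, which reads TTNCATCA on the other, in RefSeq promoter windows of build GRCm38.p6 from 250 bases before to 50 bases after each gene start. Of the 51 genes 41 matched the window table, and the genes not matched were Eif4ebp1, Aldh1l2, Tdh, Cth, Slc7a5, Slc7a3, Cars, Lars, Nars and Wars. The element was found in 14 of the 41, or 34.1% (exact 95% binomial interval 20.1% to 50.6%), beside 4.51% of the 27025 genes in the window table. The list was chosen to hold known ATF4 targets, so this share is not independent of the choice of genes. The interval treats the genes as a random sample, which they are not. The stretches of the 9 genes that hold it and passed the test in either comparison are shown to set the element beside the values, 5′ to 3′ on the strand of the gene, with the element in capitals. They lie at chr1:191183425-191183454 for Atf3, chr2:152344028-152344057 for Trib3, chr2:119351038-119351067 for Chac1, chr7:126625562-126625591 for Nupr1, chr6:7693214-7693243 for Asns, chr11:120643833-120643862 for Pycr1, chr6:55037960-55037989 for Gars, chr15:11399655-11399684 for Tars and chr4:129189895-129189924 for Yars. Chac1, Gars and Yars lie on the plus strand and the others on the minus strand.
Atf3: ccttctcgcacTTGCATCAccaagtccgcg
Trib3: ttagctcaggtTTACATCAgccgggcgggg
Chac1: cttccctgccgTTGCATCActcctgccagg
Nupr1: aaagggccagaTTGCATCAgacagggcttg
Asns: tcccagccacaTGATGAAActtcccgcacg
Pycr1: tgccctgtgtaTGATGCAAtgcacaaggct
Gars: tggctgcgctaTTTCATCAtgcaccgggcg
Tars: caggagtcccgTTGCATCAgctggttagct
Yars: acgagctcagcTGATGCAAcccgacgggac

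The other genes with the element were Vldlr, Pck2, Slc7a11, Aars and Iars, of which Slc7a11 and Aars each held 2. The element started between 200 bases before the gene start (Vldlr) and 15 bases after it (Trib3). In the DOX or E14 comparison, 12 of the 14 genes with the element were tested, all but Vldlr and Slc7a11, and 8 of the 12 rose and 1 fell. Of the 27 matched genes without it, all tested, 15 rose and 2 fell. Among all genes tested in that comparison, 27.2% rose and 28.3% fell. The median log2 fold was 0.77 with the element and 0.55 without it. No element was found in the windows of Phgdh, Psat1, Shmt2 or Mthfd2, which says only that these letters are not in those windows. A match is a description of sequence and does not show that a factor binds there.

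**Figure D1:**
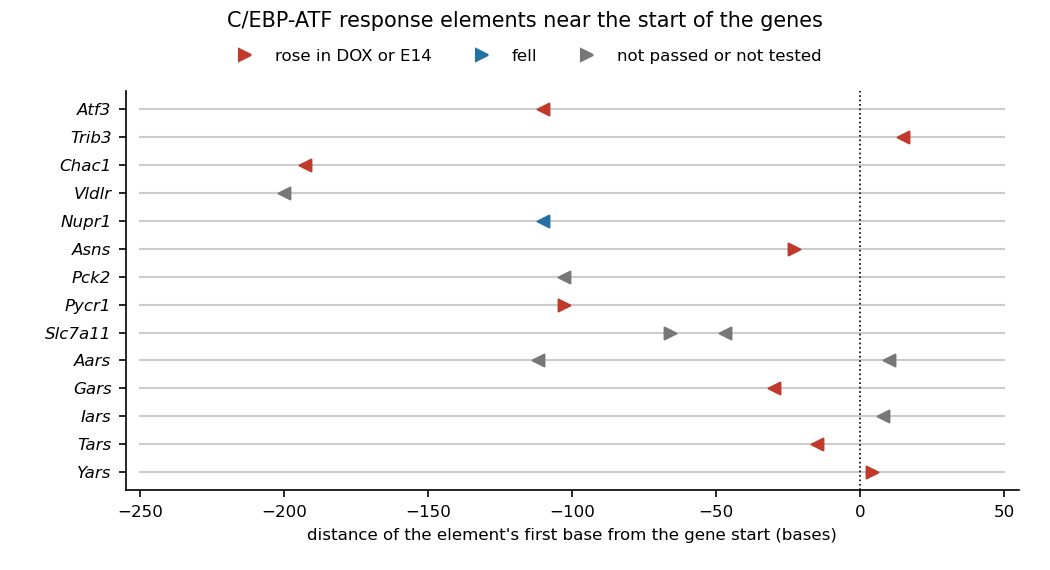
Position of each C/EBP-ATF response element in the promoter windows of the 14 genes that hold one; the x axis is the distance in bases of the element's first base from the gene start, arrowheads give its strand (pointing right where it is the gene's) and colors give the call in the DOX or E14 comparison. Red genes rose (8), the blue gene, Nupr1, fell, and grey genes did not pass or were not tested.

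In the comparison of the DOX or E14 group with noDox, most of the set was higher: 30 of 49 tested genes rose, 6 fell and 13 did not pass. A gene counts as changed at q < 0.05 by Cuffdiff in the authors' deposited table. That is 61.2% rising and 12.2% falling, beside 27.2% rising and 28.3% falling among all 12382 tested genes, of which 55.5% were called in either direction. Since the genes were chosen with earlier results known, this contrast is a description of the list only. The median log2 fold of the tested members was 0.70, and that of all tested genes 0.01. Rises were at least 1 on the log2 scale in 15 genes, and falls in 2. The changes ran from a fall of 2.14-fold (Aldh1l2) to a rise of 15.2-fold (Stc2). The genes were well expressed, with a median of 30.7 RPKM in noDox against 10.99 RPKM over all tested genes, and 47 of 51 had at least 1 RPKM there. Errors are standard errors (SE) of the log2 fold, obtained by dividing its size by the test statistic of the same gene, since no value per library was given. The calls of Asns, Cebpb, Cth, Eif4ebp1, Eprs, Mars and Nupr1 were lost when p was taken from that statistic, which left 29 of the 36.

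**Figure D2:**
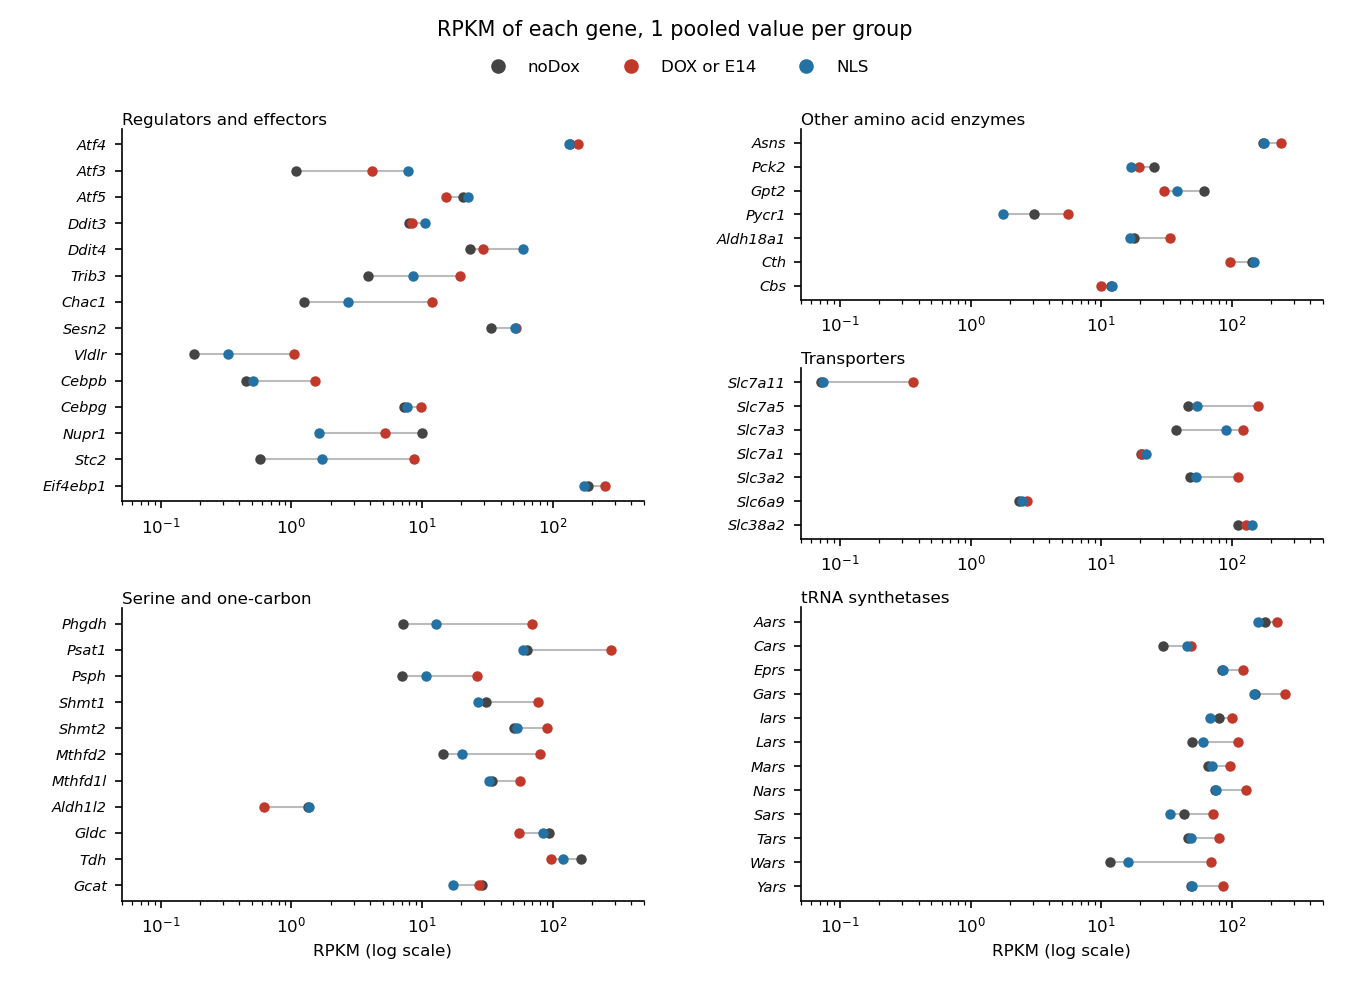
RPKM of the 51 genes on a log axis, with 1 pooled value per group and no error bar because no value per library was given; noDox is from the DOX or E14 table. The DOX or E14 point lies to the right of noDox for most serine enzymes and all 12 tRNA synthetases, and the NLS point lies near noDox for many of them.

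Among the regulators and effectors, 7 of 13 tested genes rose in the DOX or E14 group and 1 fell, with a median log2 fold of 0.43. Atf4 itself, the central factor (chromosome 15, 80255184 to 80257541 on GRCm38), stood at 135 RPKM in noDox, 158 in DOX or E14 and 133 in NLS. Its log2 fold of 0.22 in the DOX or E14 group had a 95% interval of −0.27 to 0.72 and did not pass (q = 0.287, Cuffdiff, authors' deposited table). Atf5, a relative whose translation is also raised under stress, stood at 20.5, 15.1 and 22.6 RPKM. Ddit3, which encodes the death-linked factor CHOP, stood at 8.02, 8.39 and 10.5 RPKM. Neither passed in either table, and their SEs in the DOX or E14 table were wide, at 0.88 for Atf5 and 1.80 for Ddit3. Exons of Ddit3 share 68 bases with those of Mars on the opposite strand, and exons of Atf5 share 82 bases with those of Nup62, at 116 RPKM in noDox. Whether the counting used strand is not given in the sources used here, so reads of such pairs are uncertain. The same holds for Cebpb, Shmt1, Shmt2, Slc6a9 and Yars, and for Gcat and Aars, which share exon bases with a gene on their own strand.

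Atf3, a stress-induced factor of the same family, stood at 1.09 RPKM in noDox, 4.17 in DOX or E14 and 7.83 in NLS. It rose in both tables, with log2 folds of 1.93 (SE 0.53) and 2.81 (SE 0.73). Trib3, a pseudokinase that is an ATF4 target and dampens the response, stood at 3.86, 19.6 and 8.56 RPKM and also rose in both. Its log2 folds were 2.35 (SE 0.35) in DOX or E14 and 1.11 (SE 0.48) in NLS. Both genes hold the element shown above. Chac1, which breaks down glutathione, stood at 1.25, 11.99 and 2.72 RPKM, a rise of 9.56-fold in DOX or E14 (log2 fold 3.26, SE 0.53). In NLS its log2 fold of 1.08 (SE 0.84) did not pass.

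Stc2, a secreted glycoprotein of the stress response, stood at 0.573 RPKM in noDox, 8.70 in DOX or E14 and 1.71 in NLS. Its log2 fold of 3.92 (SE 0.67) was the highest of the set without a pseudocount. With a pseudocount of 1 it was 2.62, under the 3.13 of Phgdh, and its call was lost where at least 1 RPKM was required in both groups. The genes that restrain the growth kinase complex mTORC1 or its output differed. Sesn2, a leucine sensor, stood at 33.7, 52.8 and 51.3 RPKM and rose in DOX or E14 (log2 fold 0.65, SE 0.26). Its log2 fold of 0.57 in NLS (SE 0.31) did not pass. Ddit4, an inhibitor of mTORC1, stood at 23.1, 29.4 and 59.8 RPKM and rose only in the NLS table. Its log2 folds were 0.35 (SE 0.28) in DOX or E14 and 1.34 (SE 0.34) in NLS. The difference of 0.99 between these folds (SE 0.44) did not pass the test of the difference given below. Eif4ebp1, a repressor of cap-dependent translation, rose from 186 to 250.2 RPKM in DOX or E14 (log2 fold 0.43, SE 0.25) and stood at 173 RPKM in NLS.

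Cebpb and Cebpg encode C/EBP partners of ATF4. Cebpb rose from 0.450 to 1.52 RPKM in DOX or E14 and was not tested in NLS, where it stood at 0.510 RPKM. Cebpg stood at 7.31, 9.79 and 7.63 RPKM and did not pass (q = 0.0628, Cuffdiff, authors' deposited table, DOX or E14). Nupr1, a small chromatin-associated stress protein gene, was the regulator that fell, from 10.1 RPKM in noDox to 5.23 in DOX or E14 (log2 fold −0.95, SE 0.55). It stood at 1.64 RPKM in NLS, where the log2 fold of −2.66 (SE 1.18) did not pass. Vldlr, a lipoprotein receptor gene, stood at 0.179, 1.05 and 0.328 RPKM and was tested in neither table.

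All 3 enzymes of serine synthesis rose in DOX or E14. Phgdh, which commits a glycolytic intermediate to serine synthesis (chromosome 3, 98313170 to 98339990), stood at 7.12 RPKM in noDox, 70.1 in DOX or E14 and 12.8 in NLS. That is a rise of 9.85-fold in DOX or E14 (log2 fold 3.30, SE 0.31). Psat1, the aminotransferase of the next step, stood at 63.5, 279 and 58.9 RPKM (log2 fold 2.14, SE 0.26). Psph, the phosphatase of the last step, stood at 7.08, 26.3 and 10.7 RPKM (log2 fold 1.89, SE 0.33). In all 3 genes the DOX or E14 value stood above both others. The NLS values of Phgdh and Psph lay between noDox and DOX or E14, and that of Psat1 below noDox. Exons of Psph share 452 bases with those of Cct6a on the opposite strand, which stood at 186 and 390 RPKM in noDox and in DOX or E14, so the Psph values are uncertain. The RNA level of Phgdh, taken per length, was 0.112 times that of Psat1 in noDox, 0.251 in DOX or E14 and 0.218 in NLS.

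The enzymes that move the carbon unit from serine to folate rose as well. Mthfd2, the mitochondrial folate dehydrogenase, stood at 14.5, 80.6 and 20.2 RPKM in noDox, DOX or E14, and NLS. It rose 5.58-fold in DOX or E14 (log2 fold 2.48, SE 0.28). Shmt1, the cytosolic serine hydroxymethyltransferase, stood at 30.7, 76.9 and 27.0 RPKM (log2 fold 1.32, SE 0.26). Shmt2, its mitochondrial counterpart, stood at 51.01, 90.2 and 53.4 RPKM (log2 fold 0.82, SE 0.26). The cytosolic form was thus at 0.602 times the mitochondrial RNA level in noDox and 0.853 times in DOX or E14. Mthfd1l, which releases formate in mitochondria, stood at 34.4, 55.9 and 32.5 RPKM (log2 fold 0.70, SE 0.26).

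Of the enzymes that break down glycine and threonine, Gldc and Tdh fell in DOX or E14 and Gcat did not pass. Gldc, the decarboxylase of the glycine cleavage system, fell from 94.3 RPKM in noDox to 55.3 in DOX or E14 (log2 fold −0.77, SE 0.26) and stood at 85.1 in NLS. Tdh, the threonine dehydrogenase on which mouse embryonic stem cells depend, fell from 164 to 96.4 RPKM (log2 fold −0.77, SE 0.26) and stood at 120.5 RPKM in NLS. Gcat, the ligase that acts after Tdh, stood at 28.6, 27.5 and 17.3 RPKM and fell in NLS alone, where its log2 fold was −0.76 (SE 0.34). The difference of −0.70 between its folds (SE 0.44) did not pass the test of the difference. Aldh1l2, a mitochondrial folate enzyme, fell from 1.33 to 0.621 RPKM in DOX or E14 (log2 fold −1.10, SE 0.45) and stood at 1.36 RPKM in NLS. Its exons share 1056 bases with those of D10Wsu102e on the opposite strand, which was at 35.4 RPKM in noDox, so this value is uncertain.

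Beside the falls of Tdh and Gldc, the summed RPKM of the 8 pluripotent cell markers was 1812 in noDox, 1146 in DOX or E14 and 1651 in NLS. The part of this difference in the values of the enzymes was not tested.

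The other amino acid enzymes split. Of 7 tested genes 3 rose and 2 fell in DOX or E14, with a median log2 fold of −0.25. The proline enzymes rose: Aldh18a1, of the first step, stood at 18.0, 33.4 and 16.6 RPKM in noDox, DOX or E14, and NLS (log2 fold 0.90, SE 0.26). Pycr1, of the last step, stood at 3.08, 5.60 and 1.77 RPKM (log2 fold 0.86, SE 0.36). Asns, the asparagine synthetase and a classical ATF4 target, stood at 174, 237 and 176 RPKM. Its rise in DOX or E14 was 1.36-fold (log2 fold 0.44, SE 0.26, q = 0.0331, Cuffdiff, authors' deposited table).

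Gpt2, the mitochondrial alanine aminotransferase, stood at 61.4 RPKM in noDox, 30.3 in DOX or E14 and 37.9 in NLS. It fell in both tables, with log2 folds of −1.02 (SE 0.25) and −0.73 (SE 0.30). Cth, which releases cysteine from cystathionine, fell from 144 to 96.9 RPKM in DOX or E14 (log2 fold −0.57, SE 0.25) and stood at 149 RPKM in NLS. Cbs, the enzyme before it, stood at 11.97, 10.05 and 12.07 RPKM and passed in neither table. Pck2, the mitochondrial phosphoenolpyruvate carboxykinase, stood at 25.5, 19.7 and 16.9 RPKM and passed in neither, with log2 folds of −0.38 (SE 0.27) and −0.63 (SE 0.33).

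Of the 6 tested transporters 3 rose in DOX or E14 and 0 fell, with a median log2 fold of 0.71. Slc7a5 and Slc3a2 encode the light and heavy chains of a transporter for large neutral amino acids. Slc7a5 (chromosome 8, 121881150 to 121907694) stood at 45.9 RPKM in noDox, 158 in DOX or E14 and 53.9 in NLS, a log2 fold of 1.79 (SE 0.26) in DOX or E14. Slc3a2 stood at 48.3, 111 and 53.5 RPKM, a log2 fold of 1.20 (SE 0.26). The ratio of Slc7a5 to Slc3a2 RNA, per length, was 0.949, 1.42 and 1.01. Slc7a3, a carrier of cationic amino acids on the X chromosome, stood at 37.4, 121 and 90.0 RPKM. It rose in both tables, with log2 folds of 1.69 (SE 0.26) in DOX or E14 and 1.23 (SE 0.31) in NLS, and both values lay above noDox.

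Slc7a1, which carries the same class of amino acids, stood at 20.2, 20.4 and 22.0 RPKM. Its log2 fold of 0.01 in DOX or E14 had a 95% interval of −0.49 to 0.51. Slc38a2, a carrier of small neutral amino acids, stood at 111, 129 and 144 RPKM, and Slc6a9, a glycine transporter, at 2.34, 2.71 and 2.47 RPKM. These 3 passed in neither table. Slc7a11, the cystine carrier, stood at 0.0716, 0.363 and 0.0746 RPKM and was tested in neither.

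Of the 12 tRNA synthetases, which attach amino acids to their tRNAs, 10 rose in DOX or E14 and 0 fell, and their median log2 fold was 0.76. Wars, for tryptophan (chromosome 12, 108860030 to 108894174), stood apart from the rest at 11.6 RPKM in noDox, 69.4 in DOX or E14 and 15.97 in NLS. It rose 5.96-fold in DOX or E14 (log2 fold 2.58, SE 0.30). Lars, for leucine, stood at 49.5, 112 and 60.0 RPKM and rose 2.27-fold (log2 fold 1.18, SE 0.26). The rises of the other 8 ran from 1.46-fold (Mars) to 1.76-fold (Yars).

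Gars, for glycine, stood at 151 RPKM in noDox, 257 in DOX or E14 and 147 in NLS. Tars, for threonine, stood at 46.6, 79.7 and 48.6 RPKM, and Yars, for tyrosine, at 48.6, 85.5 and 49.3. Nars, for asparagine, stood at 75.0, 128 and 75.4 RPKM, Sars, for serine, at 43.1, 72.2 and 33.5, and Cars, for cysteine, at 29.6, 49.0 and 45.2. In each of these the DOX or E14 value was the highest. Eprs, for glutamate and proline, stood at 83.6, 123 and 85.4 RPKM, and Mars, for methionine, at 65.8, 96.2 and 70.2. The genes that did not pass were Aars, for alanine, at 179, 224 and 159 RPKM, and Iars, for isoleucine, at 80.3, 101 and 68.1 RPKM. Their log2 folds were 0.32 (SE 0.28) and 0.33 (SE 0.26), and both hold the element near their start.

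**Figure D3:**
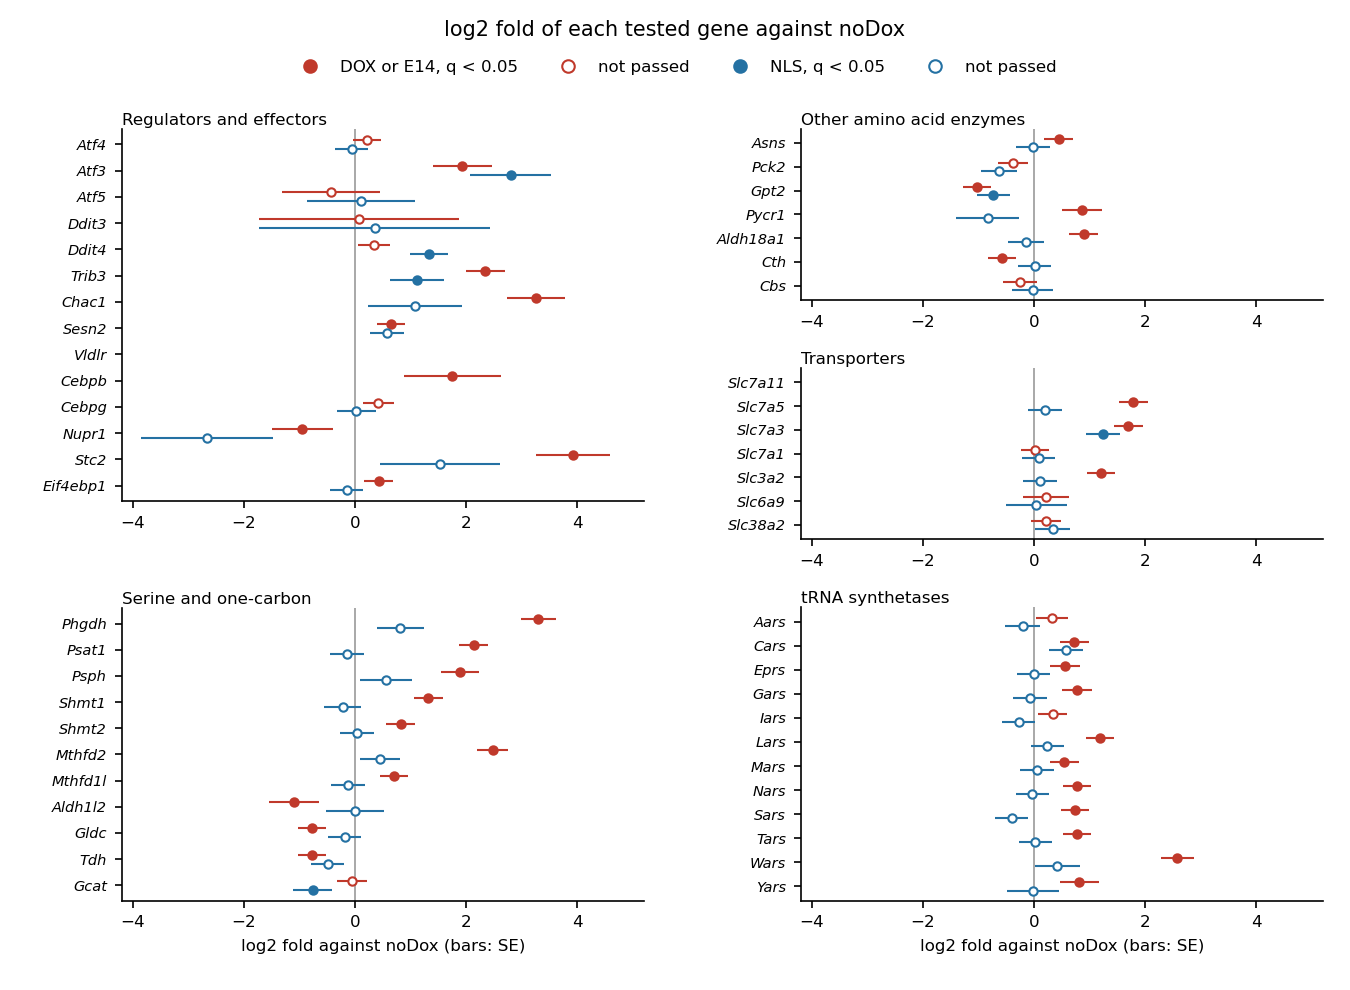
log2 fold against noDox of each tested gene, with bars of 1 SE; red is the DOX or E14 group, blue is NLS, and filled points passed q < 0.05. Filled red points lie right of 0 for 30 genes and left of 0 for 6, and there are 6 filled blue points.

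The NLS comparison sets the group labelled with NLS-AGO2 alone beside noDox. Few members changed: 4 of 48 tested genes rose and 2 fell at q < 0.05 in the authors' deposited table. That is 12.5%, beside 8.36% of all 12936 tested genes, a share near the background. By direction, 8.33% rose and 4.17% fell, beside 3.97% and 4.39% of all tested genes. The rises were those of Atf3, Ddit4, Trib3 and Slc7a3, and the falls those of Gcat and Gpt2. The median log2 fold of the members was 0.02, and that of all tested genes −0.01. Of the 12 tRNA synthetases 0 passed, with 1 at an unadjusted Cuffdiff p under 0.05, and the median log2 fold was −0.01. Over all 48 tested members 13 were under that unadjusted p, and no share of all genes at that p is given here. The calls of Trib3, Gcat and Gpt2 were lost at q below 0.01. For Psat1 the 95% interval of the log2 fold was −0.74 to 0.45, and for Shmt2 −0.57 to 0.63.

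Both comparisons use the noDox libraries, so their folds are set side by side and their difference was tested for each gene across the whole tables. The z test divides the NLS fold minus the DOX or E14 fold by an SE built from the authors' deposited statistics, with Benjamini-Hochberg adjustment over 11907 genes at a threshold of 0.05. It is a normal approximation with 2 libraries per group, and no exact test over samples could be run on pooled values. It called 8 of 48 tested members lower in NLS and 0 higher. That is 16.7% lower, beside 3.18% of all genes lower, 9.78% higher and 13.0% called in either direction. The genes were Phgdh, Psat1, Shmt1 and Mthfd2 among the serine and one-carbon enzymes, Slc7a5 and Slc3a2 among the transporters, and Sars and Wars among the synthetases. Phgdh differed by −2.48 on the log2 scale (SE 0.53, 95% interval −3.52 to −1.45). With the SE that the deposited p implies, 17 members were called, 16 lower and 1 (Ddit4) higher. The median difference over the 48 members was −0.59, and over all genes tested in both 0.01.

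Of the 12 regulators 0 passed this test, beside 13.0% of all genes called in either direction. A count of 0 among so few genes is near that share. Of the genes that rose in NLS, Atf3 differed by 0.87 (SE 0.90), Trib3 by −1.23 (SE 0.60) and Slc7a3 by −0.46 (SE 0.40). For Sesn2 the difference of −0.08 had a 95% interval of −0.87 to 0.71. For Cars, which stood at similar levels in both groups, the interval was −0.94 to 0.63. The SE of a difference counts the noDox error although it cancels, which on that ground makes it too large rather than too small. It also rests on the deposited statistics, and at the lowest deposited p these need not give a cautious SE. Every member called here had that lowest p in DOX or E14. A p that misses the threshold does not show that the groups are alike.

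**Figure D4:**
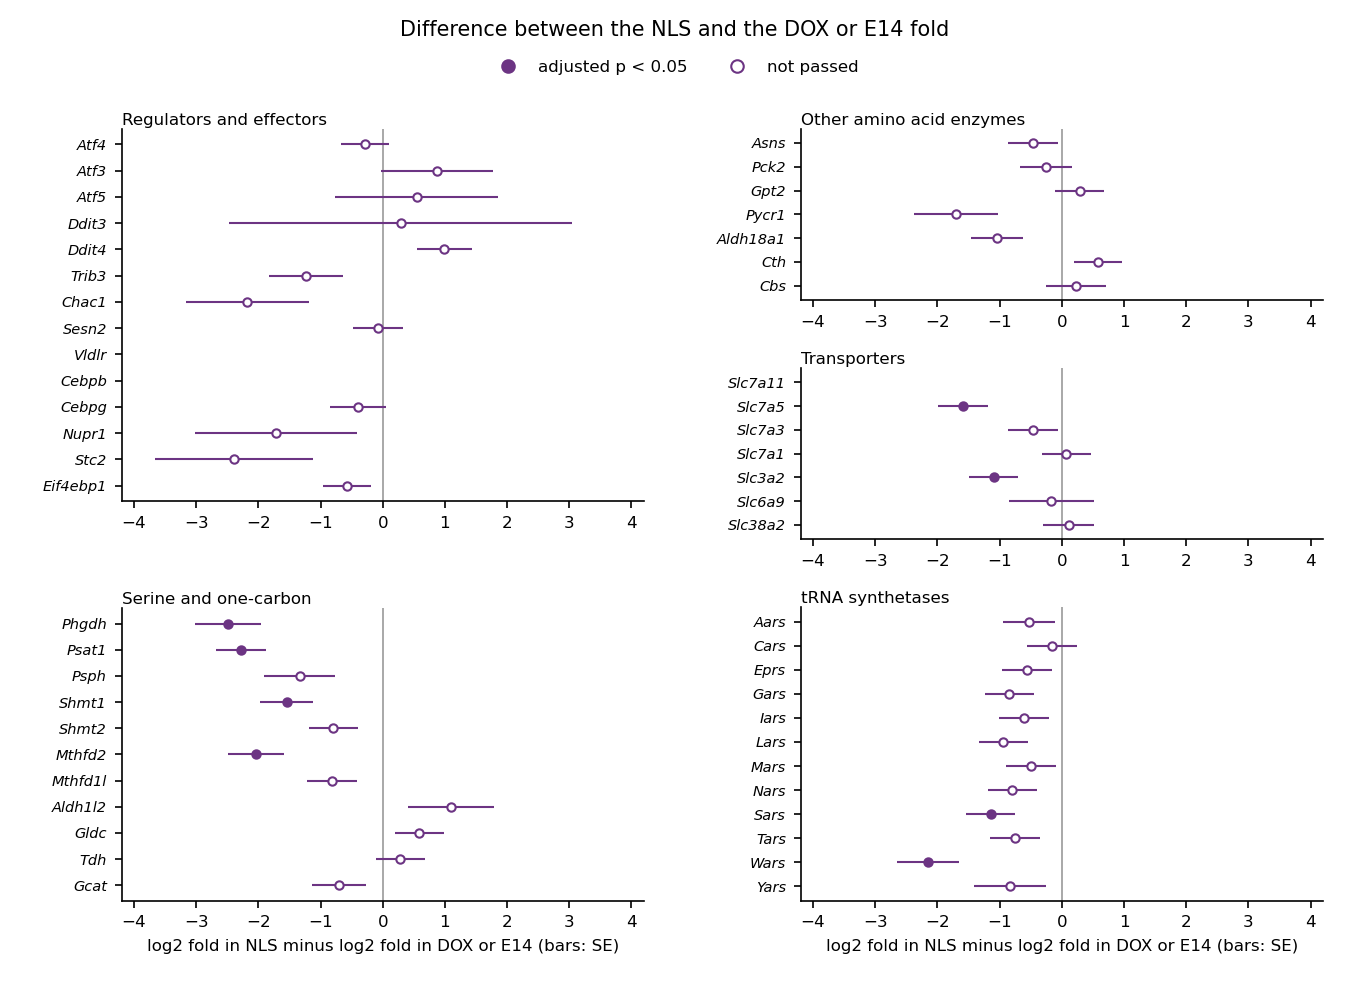
NLS log2 fold minus DOX or E14 log2 fold for each gene tested in both tables, with bars of 1 SE; filled points passed the test of the difference. The 8 filled points all lie left of 0, between −2.48 for Phgdh and −1.10 for Slc3a2.

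The counts of related lists that follow stand beside the 27.2% of all tested genes that rose and 28.3% that fell in DOX or E14. In NLS they stand beside 3.97% that rose and 4.39% that fell, 8.36% in either direction. A count of 0 or 1 in lists this short is near that share. The kinases and phosphatases upstream of ATF4 were listed with eIF2 subunits, subunits of its exchange factor and other regulators, 15 genes in all. In DOX or E14 4 rose (26.7%) and 5 fell (33.3%), with a median log2 fold of 0.00. No kinase or phosphatase rose, and the genes that rose were subunits or other regulators. Eif2ak2, the kinase PKR that responds to double-stranded RNA, fell from 10.8 to 2.05 RPKM (log2 fold −2.40, SE 0.34) and stood at 10.3 in NLS. Eif2ak3, the kinase PERK of the endoplasmic reticulum, fell from 9.86 to 5.50 RPKM (log2 fold −0.84, SE 0.29). Impact, an inhibitor of the amino acid sensing kinase GCN2, fell from 74.1 to 42.2 RPKM (log2 fold −0.81, SE 0.25). In NLS 1 of 15 genes passed, namely Eif2ak4, which encodes GCN2 and fell (log2 fold −0.78, SE 0.35). Eif2ak4 also fell in DOX or E14, from 9.93 to 6.04 RPKM (log2 fold −0.72, SE 0.28).

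Of 20 tested genes of endoplasmic reticulum stress, 3 rose and 6 fell in DOX or E14, with a median log2 fold of −0.13. Dnajb9, a co-chaperone, fell from 17.4 to 6.38 RPKM, Xbp1, a factor of the unfolded protein response, from 32 to 14.1 RPKM, and Manf, a secreted protective factor, rose from 16.8 to 45.5 RPKM. The chaperone Hspa5 stood at 208, 263 and 267 RPKM and passed in neither table. In NLS 0 of the 20 passed, with 1 at an unadjusted Cuffdiff p under 0.05.

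Of 11 other genes of cytosolic charging, cofactors included, 9 rose in DOX or E14 and 0 fell, with a median log2 fold of 0.82. Eef1e1, a scaffold protein of the synthetase complex, rose from 33.1 to 94.8 RPKM, Farsb, for phenylalanine, from 48.1 to 97.5 and Farsa, its other subunit, from 57.9 to 117 RPKM. Of 17 mitochondrial synthetases 7 rose and 3 fell, with a median of 0.32. Rars2, for arginine, rose from 8.58 to 27.3 RPKM. Lars2 was called lower, from 5777 to 24.1 RPKM, although its SE of 10.2 exceeded its log2 fold of −7.90. In NLS 0 of 11 cytosolic genes passed (1 at an unadjusted Cuffdiff p under 0.05) and 0 of 17 mitochondrial ones (4 at that p). Of all genes tested in NLS 8.36% passed.

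Of 18 other amino acid transporters tested, 9 rose and 6 fell in DOX or E14, with a median log2 fold of 0.41. Slc1a3, a glutamate carrier, rose from 0.467 to 5.37 RPKM, whereas Slc1a1, another glutamate carrier, fell from 3.25 to 0.354 and Slc43a1, a carrier of neutral amino acids, rose from 0.853 to 6.29 RPKM. Of 19 tested folate and methionine genes 10 rose and 7 fell, with a median of 0.43. Dmgdh, of choline breakdown, fell from 4.06 to 0.151 RPKM, Mthfd2l, a relative of Mthfd2, rose from 0.416 to 2.43 and Ahcy, of the methionine cycle, rose from 16.5 to 53.7 RPKM. Aldh1l1, the cytosolic relative of Aldh1l2, fell from 2.25 to 0.715 RPKM in DOX or E14 and rose to 4.97 RPKM in NLS. The other genes of the glycine cleavage system, in which Gldc works, moved both ways. Amt fell in both tables, from 103 RPKM in noDox to 44.3 in DOX or E14 and 58.6 in NLS. Gcsh rose from 61.0 to 107 RPKM in DOX or E14 and Dld from 23.7 to 33.9 RPKM, and neither passed in NLS.

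**Figure D5:**
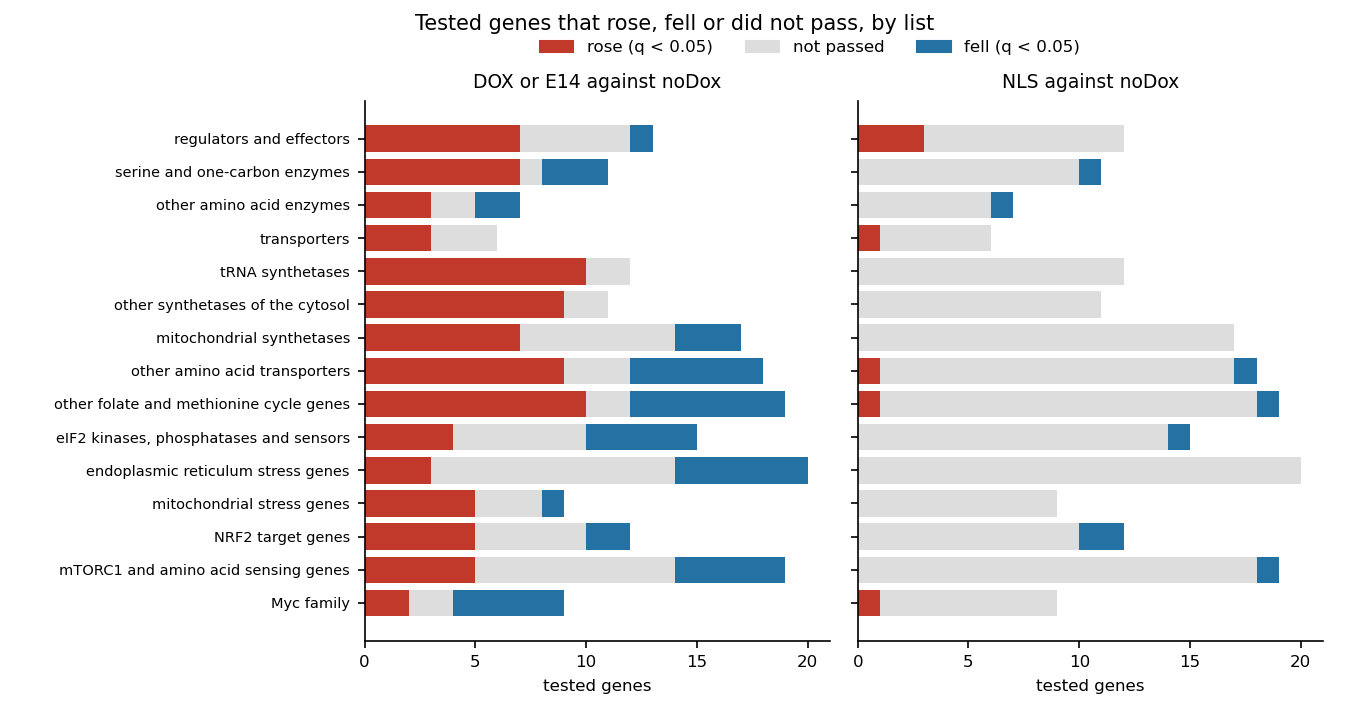
Number of tested genes that rose (red), did not pass (grey) or fell (blue) at q < 0.05 in the DOX or E14 comparison and the NLS comparison, by list; the first 5 lists hold the tested genes of the set. Red takes most of the bar for both lists of cytosolic synthetases in DOX or E14, and grey takes most of every bar in NLS.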

How the data were processed

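RNA was sequenced from 8 libraries in 4 labelled groups. The submitters' processing notes name TopHat, Cuffdiff, bcl2fastq 2.17.1 and the build mm10. The annotation and strand use are not given in the sources used here. The RPKM values, the signed test statistic (a score) and the p-value and q-value of each gene are the authors', per the file headers, with 1 value per group. The depth of the libraries is unknown, and nothing says whether libraries came from separate cultures. Since the tables were scaled separately, noDox levels in the NLS table were higher by a median factor of 1.03; printed noDox levels are from the DOX or E14 table.

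Log2 folds were computed from RPKM with no pseudocount. The SE is the absolute log2 fold over the absolute statistic. The z implied by the deposited p was compared with the statistic for genes with p above the lowest value. It was larger by a median factor of 1.41 (DOX or E14) or 1.42 (NLS). This SE was the larger one for every tested member with such a p. At the lowest p this need not hold. The lowest deposited p is 5e-05, hence 24 members share the lowest q of 0.00017. The difference test was tested on simulated data, where it made no false call and missed most small differences and many larger ones. Of the members 12 share exon bases with another gene of the tables. The members and lists were chosen with earlier results of these data known, and all members could be named. From other lists up to 3 called genes with at least 1 RPKM in a group, by absolute log2 fold, are named; Hspa5, Eif2ak4, Amt, Gcsh, Dld, Aldh1l1 and Nfe2l2 were named after their values were seen, and 1 gene that the rule names is not reported here. Older symbols were matched for Gcn1, Dele1 and Castor1. Alternatives to thresholds, the RPKM minimum, pseudocount, centring and SE were tried. Python 3.11.15, pandas 2.3.3, numpy 2.4.6, scipy 1.17.1 and matplotlib 3.10.9 were used.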

Additional observations from a re-analysis of the deposited data

Results flagged for a closer look

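For 8 of the genes the NLS fold against noDox differed from the DOX or E14 fold by the z test of the difference, adjusted over all genes, each being lower in NLS. The differences on the log2 scale were −2.48 for Phgdh, −2.28 for Psat1, −2.04 for Mthfd2 and −1.55 for Shmt1. They were −2.15 for Wars, −1.59 for Slc7a5, −1.14 for Sars and −1.10 for Slc3a2. Whether the compared group is DOX or E14 is not settled, so these differences are between NLS and a group of unsettled name.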

How the results depend on the processing

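The DOX or E14 count of 36 members kept within 1.5 times at q below 0.01 (32), at the lowest p (24), with at least 1 RPKM in both groups (33), with p taken from the statistic (29, chosen after seeing the data) and without the members that overlap another gene (29, also chosen after). It was 17, 15 higher and 2 lower, when the log2 fold also had to reach 1 in size. The NLS count of 6 was 3 at q below 0.01, 3 at the lowest p and 3 with p taken from the statistic, where Trib3, Gcat and Gpt2 were lost each time; it was 4 to 6 under the others. The difference count of 8 was 17 with the SE implied by the deposited p, adding Aldh18a1, Ddit4, Gars, Lars, Mthfd1l, Nars, Pycr1, Shmt2 and Tars. It was 8 with a difference of at least 1, and 7 with at least 1 RPKM in every group, where Slc3a2 was lost. The share with the element was 12.2% for TGATGNAAT (5 of 41), beside 1.08% of all genes. Under a pseudocount of 1, 6 of 97 member folds moved by more than 1 SE and no called fold changed sign; centring moved none. No paired analysis was possible because the tables hold 1 pooled value per group, and for the same reason no library could be left out.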

Other observations

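Genes of neighbouring stress and growth pathways were followed as lists. In DOX or E14 27.2% of all tested genes rose and 28.3% fell, and the counts of these short lists stand beside those shares. Of 12 tested NRF2 genes, the oxidative stress programme that shares Slc7a11 with ATF4, 5 rose and 2 fell in DOX or E14, with a median log2 fold of 0.35. Txnrd1, thioredoxin reductase, rose from 65.7 to 184 RPKM, Hmox1, heme oxygenase, from 38.9 to 105 and Srxn1, sulfiredoxin, from 9.53 to 21.7 RPKM. The factor itself, Nfe2l2, fell in both tables, from 62.4 RPKM in noDox to 32.5 in DOX or E14 and 34.8 in NLS. Of 9 tested mitochondrial stress genes 5 rose and 1 fell in DOX or E14. Hspe1 and Hspd1, the partners of the mitochondrial chaperonin, both rose, Hspe1 from 61.6 to 199 RPKM and Hspd1 from 137 to 245, whereas Gdf15, a secreted stress factor and known target of the response, fell from 6.63 to 1.81 RPKM. In NLS, where 8.36% of all tested genes passed, 0 of the 9 did, and 0 had an unadjusted Cuffdiff p under 0.05.

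Of 19 genes of mTORC1 and amino acid sensing 5 rose and 5 fell in DOX or E14, with a median log2 fold of −0.08. That is 26.3% in each direction, near the 27.2% and 28.3% of all tested genes. Eif4ebp2, the relative of Eif4ebp1, rose from 35.7 to 92.3 RPKM, whereas Sesn1, the relative of Sesn2, fell from 8.79 to 3.59 and Tsc1, of the complex that restrains mTORC1, from 11.5 to 5.03 RPKM. Of 9 genes of the Myc family 2 rose and 5 fell. Myc, a growth factor-responsive transcription factor, rose from 2.16 to 30.9 RPKM (log2 fold 3.84, SE 0.38) and stood at 3.83 in NLS. Mxd1 and Mxd4, which compete with Myc for Max, fell from 3.29 to 1.02 and from 7.33 to 2.30 RPKM.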
